A study of Homo sapiens with 31 samples.

Results

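The genes described here are CDKN1A, BTG2, GADD45A, SFN, PLK2 and PLK3, which p53 is known to switch on and which are grouped here under growth arrest. They were chosen by gene symbol, and every treatment group was included. The table holds 74834 rows, and 6 of them carry these symbols. CDKN1A, BTG2, GADD45A, SFN and PLK2 each have a row of their own, whereas PLK3 is found only in a row that combines it with the overlapping gene BTBD19. That row is called the PLK3 row here, and its reads cannot be assigned to PLK3 alone. All 6 rows passed the filter on low values, a mean normalized value of at least 10, as did 16259 rows in all.

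Poly(A) RNA of H460 cells, an established line of human non-small cell lung cancer, was sequenced 6 h after treatment in 31 libraries. Control cells were untreated (n = 4). B87, or BAY87-2243, is an inhibitor of mitochondrial complex I and was given at 1 µM (n = 4). DMKG, dimethyl α-ketoglutarate, is an ester that carries α-ketoglutarate into cells and was given at 5 mM (n = 4). B87+DMKG joined both at these doses (n = 4). Nutlin-3 was given at 30 µM (n = 3) and Rita at 50 µM (n = 4), and the triple treatments B87+DMKG+Nutlin-3 and B87+DMKG+Rita (n = 4 each) added either one to the combination. Nutlin-3 fills the pocket of MDM2 that p53 binds, and Rita is described as binding p53 itself. They are different compounds at different doses, so a difference between them cannot be assigned to the compound or to the dose. Every library came from 2 pooled wells of the same line, and the labels do not say that the replicates were separate experiments. The p-values therefore measure the spread between these libraries, which may be technical.

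The protein p53 is kept low by MDM2, which binds it and marks it for destruction. When that contact is blocked, p53 accumulates and switches on its target genes, among them MDM2 itself. CDKN1A encodes p21, the cyclin-dependent kinase inhibitor through which p53 halts cells before DNA replication. BTG2 encodes an antiproliferative protein that binds the CCR4-NOT deadenylase complex and lowers cyclin D1. GADD45A encodes a small stress protein that binds PCNA, p21 and CDK1. SFN encodes 14-3-3 sigma, which holds CDK1 with cyclin B in the cytoplasm. PLK2 and PLK3 encode Polo-like kinases that, unlike the mitotic kinase PLK1, are induced by stress and growth factors.

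On the build hg19, which the header of the table names, CDKN1A (row GSHG0025686) spans chr6:36644237-36655114, BTG2 (GSHG0001352) chr1:203274664-203278727 and GADD45A (GSHG0000614) chr1:68150860-68154021. SFN (GSHG0000287) spans chr1:27189633-27190947, PLK2 (GSHG0024806) chr5:57749812-57756087 and the PLK3 row (GSHG0000466) chr1:45265897-45279801. These are whole gene rows, and the spans do not show which parts of each gene were counted. RefSeq (build GRCh38.p14) gave a promoter for 5 of the 6 genes, all but GADD45A. The 250 bases before the start are shown for 4 of them because the group values below set PLK2 apart from CDKN1A and BTG2, and the PLK3 row apart from PLK2.
CDKN1A (chr6:36678464-36678713, plus strand): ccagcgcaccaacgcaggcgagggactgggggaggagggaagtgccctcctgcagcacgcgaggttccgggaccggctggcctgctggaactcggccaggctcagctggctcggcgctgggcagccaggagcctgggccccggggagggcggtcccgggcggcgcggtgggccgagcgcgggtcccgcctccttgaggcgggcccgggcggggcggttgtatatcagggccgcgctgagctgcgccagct
BTG2 (chr1:203305269-203305518, plus strand): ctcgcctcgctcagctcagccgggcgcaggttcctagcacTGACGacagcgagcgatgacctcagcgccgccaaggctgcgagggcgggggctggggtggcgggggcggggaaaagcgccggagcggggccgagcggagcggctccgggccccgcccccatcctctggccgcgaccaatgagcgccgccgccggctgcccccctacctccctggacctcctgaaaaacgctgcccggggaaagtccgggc
PLK2 (chr5:58460087-58460336, minus strand): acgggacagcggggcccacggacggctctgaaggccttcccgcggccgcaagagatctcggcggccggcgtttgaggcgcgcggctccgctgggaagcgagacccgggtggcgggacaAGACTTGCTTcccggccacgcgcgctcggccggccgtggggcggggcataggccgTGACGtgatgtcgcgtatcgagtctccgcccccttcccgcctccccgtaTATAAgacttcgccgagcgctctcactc
PLK3 (chr1:44800127-44800376, plus strand): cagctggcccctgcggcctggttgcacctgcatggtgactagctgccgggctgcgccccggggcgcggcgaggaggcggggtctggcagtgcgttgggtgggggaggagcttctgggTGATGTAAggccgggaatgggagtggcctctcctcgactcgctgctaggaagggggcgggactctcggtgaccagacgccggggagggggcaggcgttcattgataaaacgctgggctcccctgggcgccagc
Capitals mark matches, searched on both strands, to the p53 half-site, to TGACG (the core that CREB and ATF proteins bind), to TGATGNAA (the core that ATF4 binds with C/EBP proteins) and to TATAA. PLK2 held 1 p53 half-site at -132 from the start, a match found in 5.57% of all 35116 promoters. It also held TATAA at -28 (18.9% of promoters) and TGACG at -77 (21.2%). BTG2 held TGACG at -210, and PLK3 held TGATGNAA at -133 (3.14%). CDKN1A and SFN held none of these, and none of the 5 promoters held a CArG box, which serum response factor binds (1.16%). The well-known p53 elements of CDKN1A lie further upstream than this window. GC made up 76.4% of the bases in CDKN1A, 74.8% in BTG2, 71.2% in PLK2, 70.0% in PLK3 and 62.8% in SFN, against a median of 58% over all promoters. A match is a description of letters and shows no binding.

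Libraries held 33.4 to 82.5 M reads (median 63.1 M), and the 6 genes had between 276 and 113962 reads in any library. Mitochondrial genes took 1.49% to 2.15% of reads in Control, 1.33% to 1.66% in B87 and 1.97% to 7.51% in the other groups, with the highest share in 1 B87+DMKG library; the part of this in the results was not tested. The DMKG libraries 1 and 2 stood apart from 3 and 4 in CDKN1A, GADD45A, PLK2 and the PLK3 row. Results that use DMKG alone are given from each pair where the pairs differ in a call or in size. The keratins KRT8, KRT18 and KRT19 were high in every library (at least 44501), EPCAM was low (28.0 to 85.0) and CDH1 lay at 0 to 8.21. The leukocyte genes MS4A1 and LST1 were at 0 in every library, and CD3E reached 1.75 and PTPRC 7.80. CD68, also on the leukocyte list, is found only in a row that combines genes (182203 to 268972). The reads of that row cannot be assigned to CD68, and it is not in the leukocyte sum below. The endothelial genes PECAM1, CDH5 and VWF reached 3.51, 2.07 and 10.1. KDR, the other endothelial gene, reached 61.5; it rose with B87+DMKG (8.78 to 37.6, log2 fold change 1.95, limma adjusted p = 0.0052) and fell with Nutlin-3 (-1.86, adjusted p = 0.02). The summed level of 5 leukocyte genes was 201.9 to 244.0 in Control and 53.7 to 90.9 in B87+DMKG, almost all of it CD14, and that of 6 fibroblast genes was 954.8 to 1029 and 770.6 to 970.2. Sums were higher with the triple treatments: 5 epithelial genes summed to 245626 to 279907 in Control, 346823 to 416564 in B87+DMKG+Nutlin-3 and 345486 to 393491 in B87+DMKG+Rita, where 3 and 4 of the 4 tested rose. The fibroblast sum was 1088 to 1249 and 1331 to 1400 in these groups. The part of these markers in the results was not tested. Values are the authors' normalized read counts, without a spike-in, so changes are relative to the other RNA of the cells, and fewer cells or less RNA per cell cannot be told apart in such bulk samples. Fold changes are on the scale of log2(normalized value + 1) and are given ± SE, with 95% intervals where stated. A gene was called when its limma adjusted p (Benjamini-Hochberg over 16259 rows) was under 0.05, and the words rose and fell are used only then. All comparisons with Control share the same 4 Control libraries.

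Both p53 activators raised most of these genes, and the combination of B87 and DMKG raised 3 of them. Nutlin-3 raised 5 of 6 (all but PLK2), in a comparison where 39.1% of tested rows were called. Rita raised all 6, where 52.1% of rows were called. The median change of the 6 genes was 2.70 with Nutlin-3 and 2.62 with Rita, beside medians over all tested rows of -0.008 and 0.026. B87 alone changed none of the 6, and only 0.0431% of rows were called. In that comparison CDKN1A had the smallest unadjusted p (0.051), with a log2 fold change of 0.20 ± 0.10. DMKG alone raised CDKN1A, BTG2 and the PLK3 row and lowered PLK2, where 41.4% of rows were called. B87+DMKG raised CDKN1A, GADD45A and the PLK3 row and lowered PLK2, where 61% were called. The 4 of 6 called with B87+DMKG was near that background. With B87+DMKG+Nutlin-3, 4 genes rose, PLK2 fell and SFN was not called (58% of rows), and with B87+DMKG+Rita all 6 rose (60.1%).

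**Figure D1:**
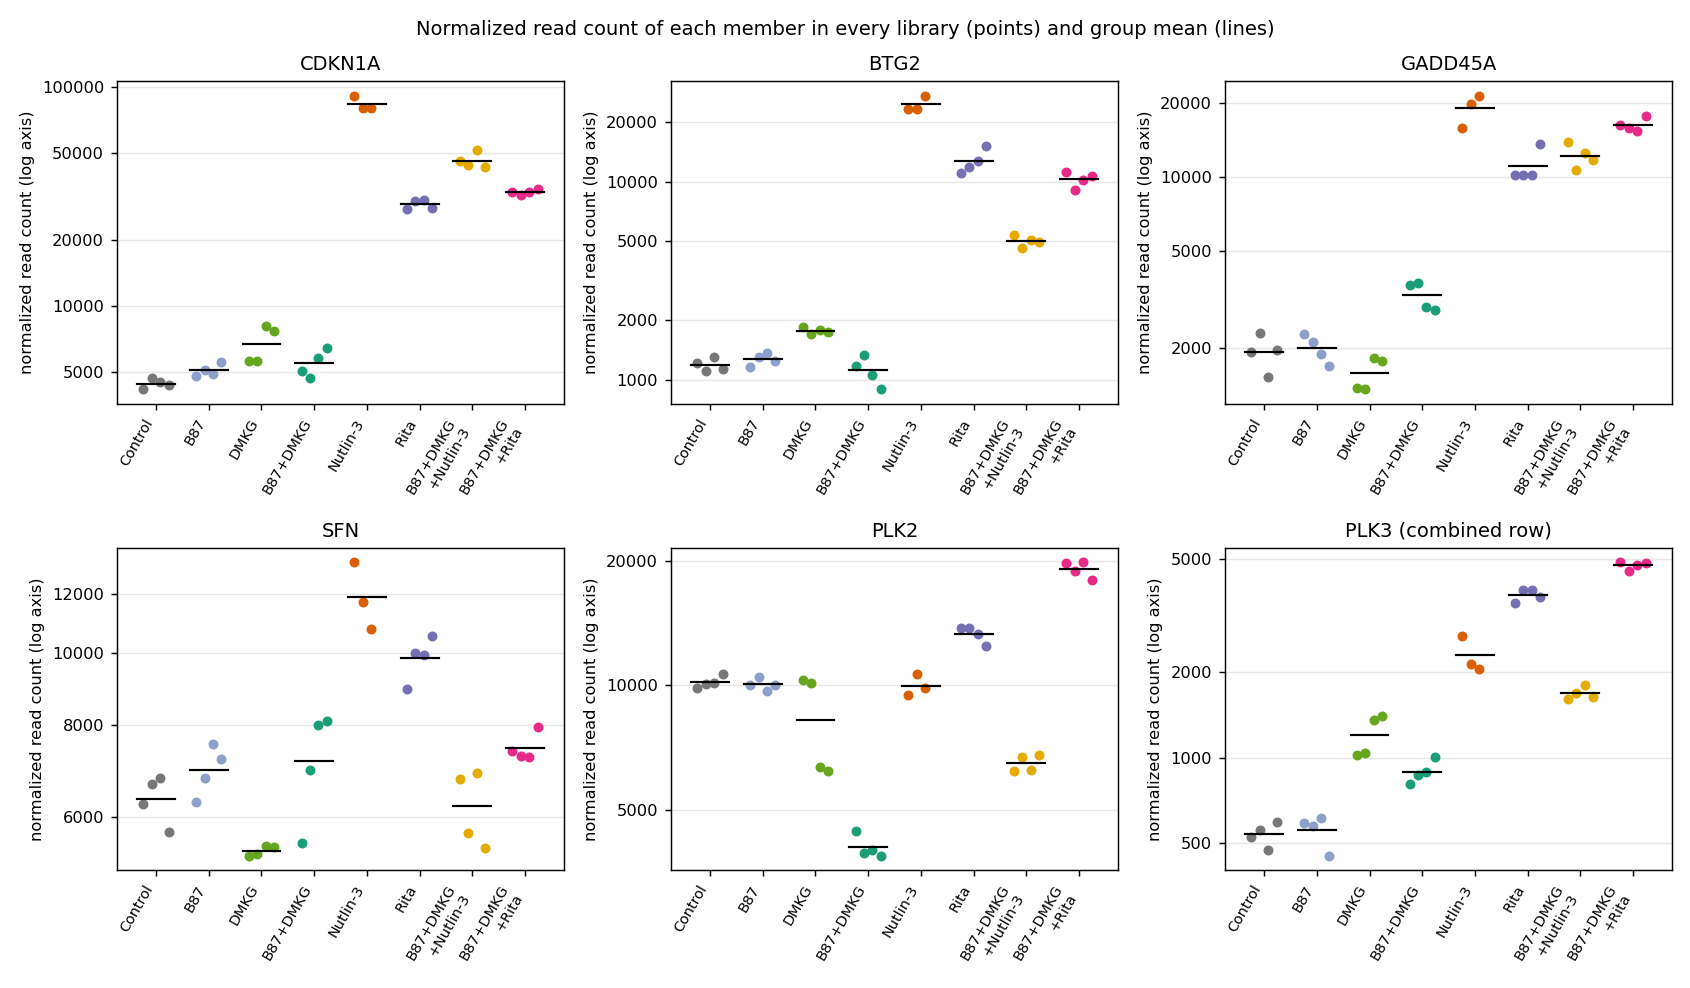
Normalized read count (log axis) of each gene in every library, by group; points are libraries in replicate order and lines are group means. For CDKN1A, BTG2, GADD45A and the PLK3 row, every library with Nutlin-3 or Rita, alone or added to B87+DMKG, lies above every library without them. PLK2 is lowest in B87+DMKG and highest in B87+DMKG+Rita, and its DMKG libraries fall into 2 pairs.

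CDKN1A, the p21 gene, stood at 4414 ± 209.6 (SD, n = 4) in Control and reached its highest level with Nutlin-3. Control libraries read 4173, 4669, 4472 and 4342, and Nutlin-3 libraries read 91711, 80660.2 and 80394. All 3 Nutlin-3 libraries were far above the Control libraries, and the rise was 19.1-fold (4.25 ± 0.11 on the log2 scale), with a limma adjusted p of 6.9e-24. This was the sixth largest rise of all tested rows; ranked by mean value, the row moved from position 2283 in Control to 97. Rita libraries read 27938, 30317, 30468 and 28088, a 6.62-fold rise (2.73 ± 0.10, adjusted p = 1.4e-19). Rita libraries lay between the DMKG and the Nutlin-3 libraries without overlap.

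With DMKG, B87+DMKG or B87, CDKN1A differed far less from Control. DMKG libraries read 5596, 5584, 8076 and 7652, with libraries 3 and 4 above 1 and 2 and all 4 above Control. The log2 fold change was 0.59 ± 0.10 (limma adjusted p = 1.4e-05), and it was 0.34 from libraries 1 and 2 and 0.83 from libraries 3 and 4, called in both cases. B87+DMKG libraries read 5023, 4706, 5811 and 6428, also all above Control, with a log2 fold change of 0.31 ± 0.10 (adjusted p = 0.0079). B87 libraries read 4774, 5075, 4903 and 5526; they too lay above the Control libraries, but the difference did not pass the test (adjusted p = 0.9). With Nutlin-3 on top of B87+DMKG, CDKN1A read 46192, 44086, 51535 and 43372, and with Rita on top it read 33118, 32238, 33086 and 34338. The first of these groups lay wholly below Nutlin-3 alone, and the second lay wholly above Rita alone. From low to high the group means ran Control, B87, B87+DMKG, DMKG, Rita, B87+DMKG+Rita, B87+DMKG+Nutlin-3 and Nutlin-3, and libraries of neighbours overlapped only between B87 and B87+DMKG and between B87+DMKG and DMKG.

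BTG2 had the largest fold rise of the 6 genes with Nutlin-3, and its level there was much lower when B87+DMKG was present. Control libraries read 1212, 1112, 1297 and 1135, and Nutlin-3 libraries read 23208, 23305 and 27224. This 20.6-fold rise (4.37 ± 0.11 on the log2 scale, limma adjusted p = 6.9e-24) was the fourth largest of all tested rows. In Rita the libraries read 11065, 11843, 12796 and 15230.0, a 10.6-fold rise (3.41 ± 0.10, adjusted p = 1.2e-21). Every Nutlin-3 library was above every Rita library. In B87+DMKG+Nutlin-3 the gene read 5382, 4615, 5099.6 and 4973, 4.89-fold lower than in Nutlin-3 alone and with no overlap. B87+DMKG+Rita libraries read 11146, 9058, 10160.4 and 10738, and only library 1 of that group passed the lowest Rita library.

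Without an activator, BTG2 rose only with DMKG. DMKG libraries read 1857, 1694, 1776 and 1739.5, all above the Control libraries, a log2 change of 0.57 ± 0.10 (limma adjusted p = 2.3e-05), and the pairs of DMKG libraries gave 0.58 and 0.57. In B87+DMKG the libraries read 1179, 1337, 1062 and 899.5 and in B87 they read 1167, 1308, 1371 and 1248, both overlapping Control. The interval of the B87+DMKG change ran from -0.30 to 0.10. From low to high the means ran B87+DMKG, Control, B87, DMKG, B87+DMKG+Nutlin-3, B87+DMKG+Rita, Rita and Nutlin-3, with overlap among the first 3 groups in turn and between B87+DMKG+Rita and Rita.

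GADD45A was raised by both activators and also, unlike BTG2, by the combination of B87 and DMKG. Control libraries read 1928, 2297, 1526 and 1958, and B87+DMKG libraries read 3620.2, 3674, 2957 and 2875. The 2 groups did not overlap (log2 fold change 0.77 ± 0.13, limma adjusted p = 5.4e-06). Neither agent alone did this. B87 libraries read 2278, 2116, 1890.5 and 1690.1, overlapping Control, and DMKG libraries read 1381, 1363, 1827 and 1774. The DMKG change of -0.28 ± 0.13 missed the threshold (adjusted p = 0.08), although it was called as a fall from DMKG libraries 1 and 2 alone (-0.48, adjusted p = 0.015), and lay at -0.08 (adjusted p = 0.69) from libraries 3 and 4 alone. It was also called without Control library 3 (-0.39), without DMKG library 3 (-0.35) and under another way of processing the data.

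Nutlin-3 brought GADD45A to 15814, 19829 and 21461, a 9.89-fold rise (3.31 ± 0.14, limma adjusted p = 9.1e-18). Rita libraries read 10160.4, 10166, 10194 and 13626, with library 4 well above 3 libraries that lay close together, a 5.74-fold rise (2.52 ± 0.13). Added to B87+DMKG, Nutlin-3 gave 13875, 10683, 12478 and 11719.6 and Rita gave 16275, 15854, 15463 and 17815. The B87+DMKG+Rita libraries were all above the Rita libraries, and they overlapped those of Nutlin-3 alone. Means ran from DMKG through Control, B87, B87+DMKG, Rita, B87+DMKG+Nutlin-3 and B87+DMKG+Rita to Nutlin-3, with overlap between DMKG and Control, Control and B87, Rita and B87+DMKG+Nutlin-3, and B87+DMKG+Rita and Nutlin-3.

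SFN, the 14-3-3 sigma gene, rose with both activators, by less than CDKN1A, BTG2, GADD45A or the PLK3 row. Control libraries read 6255, 6642, 6777 and 5728, Nutlin-3 libraries 13239.8, 11719 and 10761 and Rita libraries 8945, 9995, 9917 and 10523. Both activator groups lay above Control, with rises of 1.87-fold (0.90 ± 0.10, limma adjusted p = 3.7e-08) and 1.55-fold (0.63 ± 0.09, adjusted p = 1.6e-06). With B87+DMKG and Nutlin-3 together, SFN was not called against Control. Those libraries read 6752, 5716, 6892 and 5447, and their change against Control had an interval from -0.23 to 0.15. B87+DMKG+Rita libraries read 7366, 7260.0, 7228 and 7934, all above Control, with a small rise of 0.23 ± 0.09 (adjusted p = 0.035) that turned to -0.03 when every library was scaled to the same total. That call was also lost without Control library 1 or 4 or B87+DMKG+Rita library 1 or 4 (0.18 to 0.24). B87 libraries read 6287, 6782, 7540.5 and 7189.7 and B87+DMKG libraries 5529.9, 6953, 7981 and 8087, both overlapping Control, although without B87+DMKG library 1 its change was called (0.27). DMKG libraries read 5323, 5346, 5481 and 5475, all below Control. Their change of -0.23 ± 0.09 lay just outside the threshold (limma adjusted p = 0.051). It was called by edgeR (-0.24, adjusted p = 0.036) and DESeq2 (-0.23, adjusted p = 0.045) and without Control library 4 (-0.28). A further way of processing the data called it too, and the alternatives ran from -0.34 to -0.21. The means ran DMKG, B87+DMKG+Nutlin-3, Control, B87, B87+DMKG, B87+DMKG+Rita, Rita and Nutlin-3, and neighbours among the first 6 groups overlapped.

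PLK2 followed another order, since it was not called with Nutlin-3, fell with B87+DMKG and was highest with B87+DMKG+Rita. Control libraries read 9835, 10053, 10130.4 and 10638, and Nutlin-3 libraries read 9449, 10636 and 9856. The 2 groups overlapped, and the interval of the log2 fold change ran from -0.26 to 0.21. B87+DMKG libraries read 4426, 3922, 3997 and 3865, less than any other library of any group. This was a 2.51-fold fall (-1.33 ± 0.11 on the log2 scale, limma adjusted p = 8.4e-12). B87 alone read 10038, 10486, 9702 and 10002 and overlapped Control. DMKG libraries read 10285, 10107, 6322 and 6184, where libraries 1 and 2 lay within the Control range and libraries 3 and 4 were lower. The DMKG change of -0.35 ± 0.11 (adjusted p = 0.0093) therefore rested on libraries 3 and 4. It was 0.01 (adjusted p = 0.96) without those libraries and -0.70 without libraries 1 and 2, and leaving out library 3 or library 4 alone ended the call.

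Rita libraries of PLK2 read 13799.6, 13765, 13291 and 12472, above Control, a 1.31-fold rise (0.39 ± 0.11, limma adjusted p = 0.0028). That call was lost when libraries were scaled to the same total (0.21, adjusted p = 0.11). B87+DMKG+Rita libraries read 19828, 18898, 19863 and 17978, above every other library. Against B87+DMKG this was a 4.72-fold rise. B87+DMKG+Nutlin-3 libraries read 6185, 6718, 6218 and 6767, between B87+DMKG and Control without touching either. From low to high the means ran B87+DMKG, B87+DMKG+Nutlin-3, DMKG, Nutlin-3, B87, Control, Rita and B87+DMKG+Rita, and neighbours overlapped from B87+DMKG+Nutlin-3 up to Control.

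The PLK3 row rose with every treatment that held DMKG, Nutlin-3 or Rita. Control libraries read 524, 555, 474 and 596, and DMKG libraries read 1020.3, 1042, 1352 and 1402. DMKG thus gave the largest DMKG rise among the 6 genes, 2.22-fold (1.15 ± 0.11, limma adjusted p = 3.8e-10), and both pairs of DMKG libraries were called (0.94 and 1.36). B87+DMKG libraries read 808, 869, 892 and 1002, below every DMKG library and above every Control library. B87 alone read 589, 573, 614 and 452 and overlapped Control.

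Rita raised the PLK3 row more than Nutlin-3 did, the reverse of CDKN1A, BTG2 and GADD45A. Nutlin-3 libraries read 2689.5, 2141 and 2046, a 4.24-fold rise, and Rita libraries read 3512, 3896, 3891 and 3686, a 6.98-fold rise. All Rita libraries were above all Nutlin-3 libraries (Nutlin-3 against Rita -0.72 ± 0.11, limma adjusted p = 4.8e-06). B87+DMKG+Nutlin-3 libraries read 1609, 1687, 1807 and 1632, and B87+DMKG+Rita libraries read 4865, 4525, 4759.9 and 4857, the highest of the series. Only Control and B87 overlapped in the order Control, B87, B87+DMKG, DMKG, B87+DMKG+Nutlin-3, Nutlin-3, Rita and B87+DMKG+Rita.

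**Figure D2:**
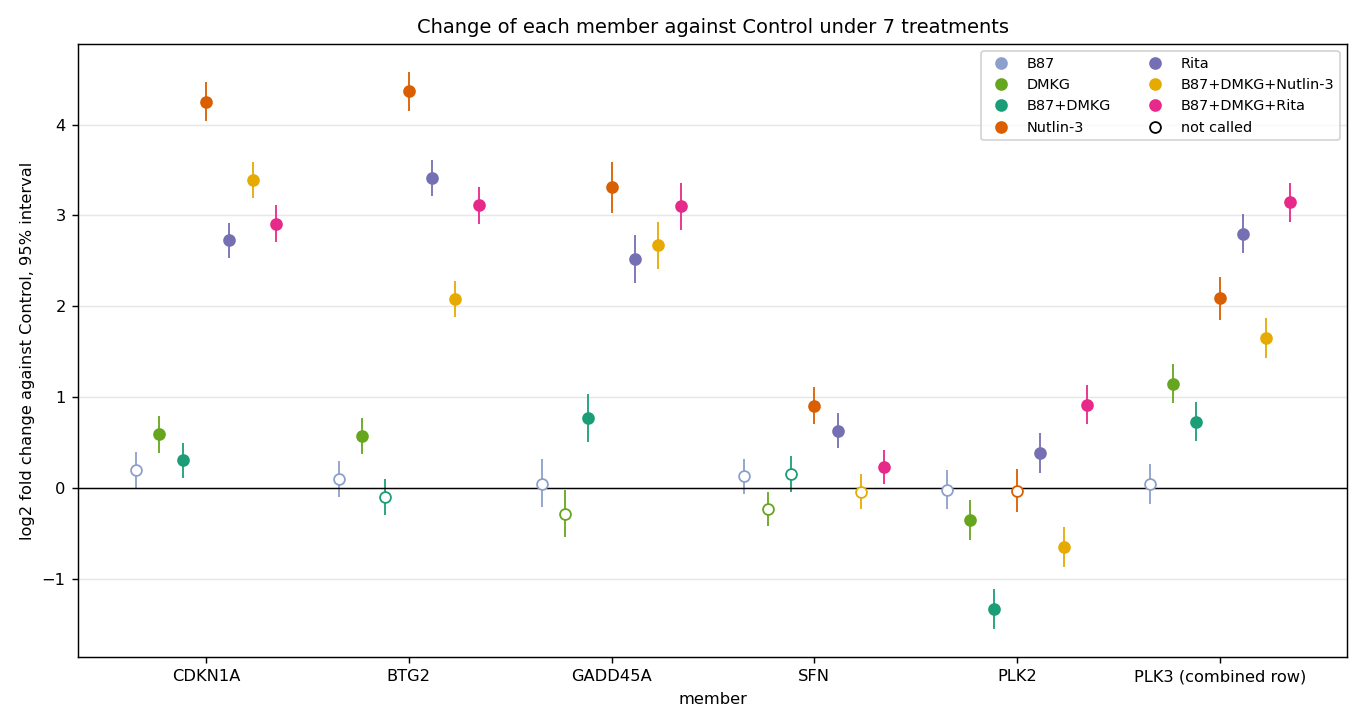
Log2 fold change against Control of each gene under 7 treatments, with 95% intervals; open points did not pass the limma threshold. CDKN1A and BTG2 reach 4.25 and 4.37 with Nutlin-3, while PLK2 stays at -0.03 with Nutlin-3 and lies at -1.33 with B87+DMKG.

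The next question was whether B87+DMKG altered the response to each activator. For Nutlin-3 all 6 genes differed, 1 upward and 5 downward, where 56.9% of rows were called. BTG2 differed most: Nutlin-3 raised it 20.6-fold against Control and 4.52-fold against B87+DMKG, a difference of -2.19 ± 0.14 on the log2 scale (limma adjusted p = 5.1e-13). For CDKN1A the rise went from 19.1-fold to 8.47-fold, a difference of -1.17 ± 0.14. GADD45A (-1.41 ± 0.19), the PLK3 row (-1.17 ± 0.16) and SFN (-1.10 ± 0.14) differed in the same direction. PLK2 went the other way, since Nutlin-3 raised it 1.6-fold from the low B87+DMKG level and had no called effect from the Control level (difference 0.70 ± 0.16, adjusted p = 0.00035). The median difference was -1.17 for the 6 genes and -0.065 for all tested rows.

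For Rita the response of CDKN1A, BTG2 and GADD45A did not differ detectably with B87+DMKG. The differences were -0.12 ± 0.14 (interval -0.40 to 0.16), -0.20 ± 0.14 (-0.49 to 0.08) and -0.20 ± 0.18 (-0.56 to 0.17). The other 3 of the 6 genes were called, against a background of 48.6% of rows. PLK2 stood out, since Rita raised it 1.31-fold from the Control level and 4.72-fold from the low B87+DMKG level. The difference was 1.85 ± 0.15 (limma adjusted p = 7.8e-11). In the same values, B87+DMKG against Control was -1.33 ± 0.11 and B87+DMKG+Rita against Rita alone was 0.52 ± 0.11. SFN differed by -0.56 ± 0.13, and the PLK3 row by -0.39 ± 0.15 (limma adjusted p = 0.032). The PLK3 row was no longer called when Control library 1 or 3, B87+DMKG library 4, Rita library 2 or 3 or B87+DMKG+Rita library 2 was left out (-0.38 to -0.33). Its call was also lost under another way of processing the data, and the alternatives ran from -0.53 to -0.36. Under quantile normalization 5 of the 6 were called, with BTG2 (-0.40) and GADD45A (-0.41) added.

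**Figure D3:**
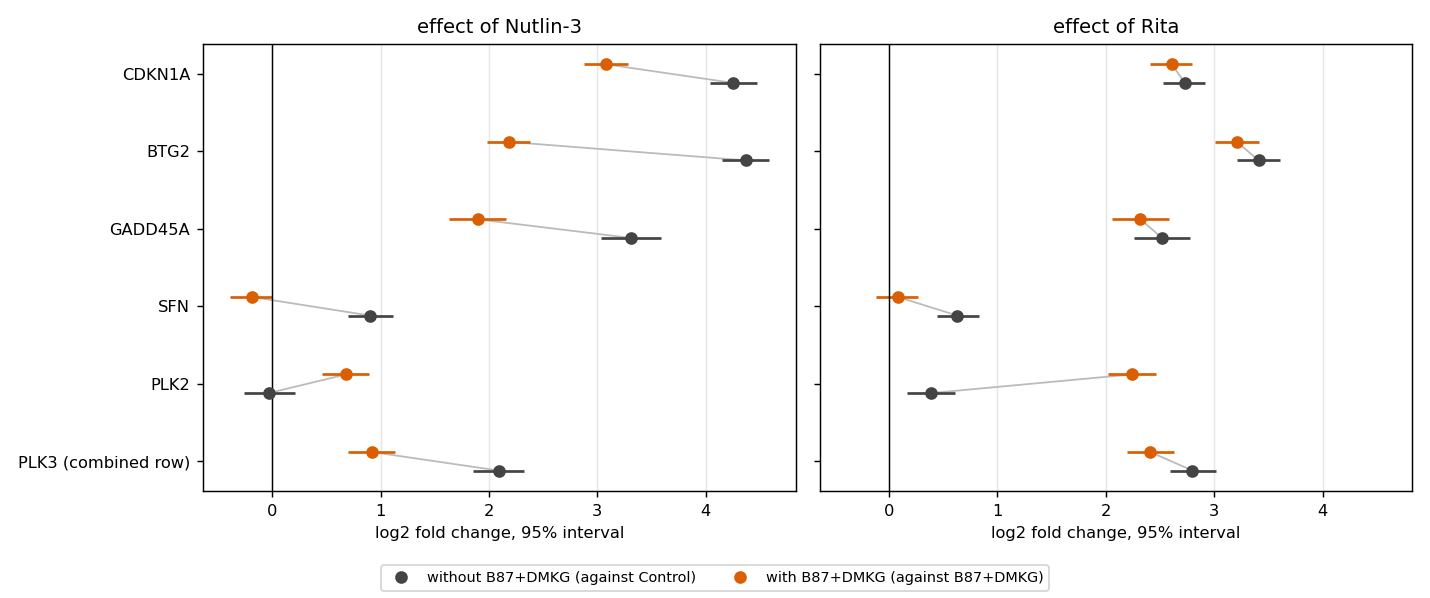
Effect of Nutlin-3 (left) and Rita (right) on each gene, as log2 fold change with 95% interval, without B87+DMKG (dark points, against Control) and with it (orange points, against B87+DMKG). The Nutlin-3 effect on BTG2 moves from 4.37 to 2.18, whereas the Rita effect on PLK2 moves from 0.39 to 2.24.

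Seen from the triple treatments, B87+DMKG+Nutlin-3 was lower than Nutlin-3 alone in all 6 genes, where 59.7% of rows were called. The falls ran from -0.44 ± 0.11 in the PLK3 row to -2.29 ± 0.11 in BTG2, and CDKN1A fell by 0.86 (limma adjusted p = 3.2e-08). B87+DMKG+Rita against Rita alone gave 3 rises and 2 falls, where 23.4% of rows were called. GADD45A (0.58 ± 0.13), PLK2 (0.52 ± 0.11) and the PLK3 row (0.34 ± 0.11) rose, and BTG2 (-0.30 ± 0.10) and SFN (-0.40 ± 0.09) fell. CDKN1A, although its libraries did not overlap, was not called (0.19 ± 0.10, limma adjusted p = 0.17). Under other ways of processing the data the CDKN1A change ran from 0.09 to 0.19 and was called in some but not all. The BTG2 fall was lost without Rita library 3 or 4 or B87+DMKG+Rita library 2 or 3 (-0.30 to -0.21). It also narrowly missed the threshold under another way of processing the data. The PLK3 rise was lost without Rita library 1 (0.31) and with every library scaled to the same total (0.26).

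Set against B87+DMKG, both triple treatments raised 5 of 6 genes and left SFN uncalled, where 58.9% of rows were called with Nutlin-3 and 67.3% with Rita. With Nutlin-3, SFN was called lower without B87+DMKG library 1 or B87+DMKG+Nutlin-3 library 1 or 3 (-0.31 to -0.24). It was also called lower in some of the other ways of processing the data, which gave -0.34 to -0.19. CDKN1A was 8.47-fold higher with Nutlin-3 added and 6.09-fold higher with Rita added. Between the triple treatments all 6 genes differed (48.3% of rows). CDKN1A was higher with Nutlin-3 (0.48 ± 0.10), and the other 5 were lower, most of all PLK2 (-1.56 ± 0.11, limma adjusted p = 1.1e-13) and the PLK3 row (-1.50 ± 0.11). SFN (-0.27 ± 0.09) was the weakest of these and was no longer called with every library scaled to the same total (-0.17), under quantile normalization (-0.16) or without B87+DMKG+Nutlin-3 library 2 (-0.23) or 4 (-0.21) or B87+DMKG+Rita library 4 (-0.24).

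Nutlin-3 against Rita, at their different doses and without B87+DMKG, also separated all 6 genes (51.2% of rows). CDKN1A was 2.88-fold higher with Nutlin-3, BTG2 1.94-fold and GADD45A 1.73-fold. SFN was 1.21-fold higher, a call that was lost without Nutlin-3 library 1 (0.19 on the log2 scale) or 2 (0.28), without Rita library 1 (0.23) and with no filter on low values (0.27, limma adjusted p = 0.056). PLK2 was 1.34-fold and the PLK3 row 1.65-fold lower with Nutlin-3.

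Adding B87 to DMKG changed all 6 genes (60.1% of rows). GADD45A was 2.07-fold higher (1.05 ± 0.13, limma adjusted p = 3.1e-08) and SFN 1.31-fold higher. The GADD45A change lay at 0.86 without DMKG libraries 1 and 2 and at 1.25 without libraries 3 and 4. PLK2 was 1.97-fold lower, with -0.63 on the log2 scale without DMKG libraries 1 and 2 and -1.33 without libraries 3 and 4, and BTG2 was 1.59-fold lower. The PLK3 row (-0.42 ± 0.11) and CDKN1A (-0.28 ± 0.10) fell as well, but neither was called without DMKG libraries 3 and 4 (-0.21 and -0.04). Without DMKG libraries 1 and 2 they lay at -0.63 and -0.53. The CDKN1A fall was also lost without DMKG library 3 or 4 or B87+DMKG library 2 (-0.19 to -0.21), within a fit of only these 2 groups (-0.28, adjusted p = 0.13), under quantile normalization (-0.20) and with the same total (-0.18).

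Compared with the sum of the B87 and DMKG effects on the log2 scale, the combination differed in 5 of 6 genes, where 48.8% of rows were called. It was below the sum for PLK2 (-0.97 ± 0.15), BTG2 (-0.77 ± 0.14), CDKN1A (-0.48 ± 0.14) and the PLK3 row (-0.47 ± 0.15), and above it for GADD45A (1.00 ± 0.18, limma adjusted p = 3.7e-05). SFN (0.25 ± 0.13) was called only without B87+DMKG library 1 (0.37), under quantile normalization (0.34) and with the same total (0.38). Without DMKG libraries 3 and 4 the calls of CDKN1A (-0.23) and the PLK3 row (-0.26) were lost. PLK2 then lay at -1.32 and GADD45A at 1.19. Without DMKG libraries 1 and 2 all 5 calls stood, with CDKN1A at -0.73, the PLK3 row at -0.67, PLK2 at -0.61 and GADD45A at 0.80.

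Levels of different genes can be compared only per length. Divided by merged exon length (GENCODE v29) and leaving out the PLK3 row, Control means per kilobase were 4811 ± 356 (SD, n = 4) for SFN, 2132 ± 71.2 for PLK2, 1447 ± 68.7 for CDKN1A, 931.5 ± 152.5 for GADD45A and 431 ± 30.4 for BTG2. With Nutlin-3 the order of these levels became CDKN1A (27625 ± 2118), then GADD45A (9200.0 ± 1404), SFN (9020.0 ± 947) and BTG2 (8915 ± 831), which lay within each other's spread, and PLK2 (2093 ± 126) last. In B87+DMKG, PLK2 fell to 849.9 ± 53.4 per kilobase, below CDKN1A (1801 ± 255) and GADD45A (1586 ± 205). CDKN1A took 0.0076% to 0.00824% of all reads in Control and 0.131% to 0.156% with Nutlin-3.

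The genes whose group means ran most like those of a member were found over the 8 group means on the log2 scale, among 7956 rows of 1 symbol with a range of at least 1. These are descriptions over 8 points that share libraries, and they were chosen for their likeness. CDKN1A ran most like GDF15 (Pearson r = 0.962), DDB2 (0.958) and ORAI3 (0.952). BTG2 ran most like FDXR (0.992), NECTIN4 (0.974) and PRDM1 (0.972), and GADD45A most like YPEL3 (0.984), RINL (0.978) and ORAI3 (0.977). PLK2 ran most like PELI1 (0.981), SGK1 (0.972) and RHEBL1 (0.964). The PLK3 row was closest to LARP6 (0.972), RRAD (0.969) and DHX58 (0.956), and SFN to AKAP8 (0.99), ZSWIM1 (0.954) and ZNF746 (0.95). SGK1, a kinase gene, had a mean of 3258 in Control, 1002 in B87+DMKG, 1681 in B87+DMKG+Nutlin-3 and 5033 in B87+DMKG+Rita, and PELI1, which encodes a ubiquitin ligase, had 158.2, 45.5, 96.6 and 275.6.

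**Figure D4:**
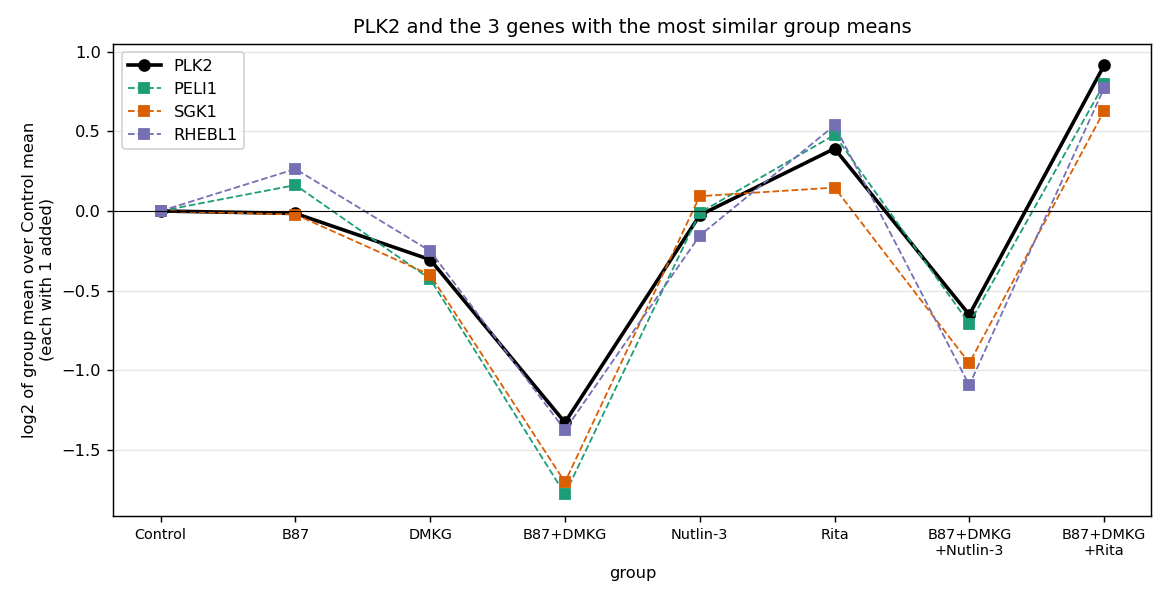
Group means of PLK2 and of the 3 genes most like it, as log2 of the group mean over the Control mean (each with 1 added); lines join the groups only to guide the eye. All 4 genes are lowest in B87+DMKG and highest in B87+DMKG+Rita, which follows from how the 3 genes were chosen.

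MDM2, which p53 itself switches on and which limits it in turn, rose from 6525 to 72583 with Nutlin-3 (log2 fold change 3.47, limma adjusted p = 5.4e-23) and to 11099 with Rita (0.76, adjusted p = 1.2e-08). It fell to 4081 with B87+DMKG (-0.68), where CDKN1A rose. MDM4, a relative of MDM2 that also binds p53, PPM1D, a phosphatase that acts on p53, and CCNG1, a cyclin gene that p53 switches on, belong to the same feedback. With B87+DMKG, CCNG1 (-1.53) and PPM1D (-0.61) fell and MDM4 rose (0.72). With DMKG alone, MDM2 (0.27), MDM4 (0.87) and CCNG1 (0.47) rose and PPM1D fell (-0.31). PPM1D rose with Nutlin-3 (1.33) and Rita (0.51), MDM4 rose with Nutlin-3 (0.56) and was not called with Rita (-0.27), and CCNG1 was called with neither (-0.36 and -0.14).

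Most of the other p53 targets tested rose with Nutlin-3. Of 4 other growth control targets tested, all rose with Nutlin-3 (median 2.15), among them PHLDA3 (2.51) and ZMAT3 (1.80), 3 rose with Rita, and 3 fell with B87+DMKG (median -0.38). Among 11 p53 targets in cell death, 9 rose and PERP fell with Nutlin-3, led by BBC3 (2.58), which encodes PUMA, and FAS (2.56), a death receptor. With Rita 6 of the 11 rose, led by PMAIP1 (2.56), which encodes NOXA, and with B87+DMKG 1 rose and 6 fell. All 10 targets in DNA repair and metabolism rose with Nutlin-3 (median 1.43), 9 rose with Rita (0.87), and 1 rose and 5 fell with B87+DMKG (-0.41). GDF15, a secreted stress factor of this list, had the largest change in both (3.84 and 3.18). Over all 16259 rows, 4912 rose and 5010 fell with B87+DMKG, and nothing particular to these lists is read from their counts.

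Over all tested rows, 39.1% were called with Nutlin-3, 52.1% with Rita, 41.4% with DMKG and 61% with B87+DMKG. The counts of the lists below are to be read beside these shares. The cyclins and kinases that p21 binds, with PCNA, formed the next list. Of 8 tested, 5 fell and 1 rose with Nutlin-3, led by CCNE2 (-2.37) and CCNE1 (-1.95), which encode E-type cyclins. With Rita 2 fell and 3 rose, and CCNE1 was among those that rose (0.66). DMKG lowered 6 of the 8, most of all CCND1 (-1.61), the cyclin D1 gene. Of the other inhibitors of cyclin-dependent kinases, CDKN2B was at 0 in every library and CDKN2A reached 0.802 in 1 library, so neither passed the filter. CDKN1B, the p27 gene, fell with B87+DMKG (-1.44) and was not called with Nutlin-3 (-0.02) or Rita (-0.05). None of the 4 tested inhibitors rose with Nutlin-3 beside CDKN1A, and CDKN2D rose with Rita (0.64). Of 20 genes of mitosis, 11 fell and 2 rose with Nutlin-3 (median -0.24), 8 fell and 3 rose with Rita (-0.15), and 8 fell and 8 rose with B87+DMKG (0.08), with TTK the largest fall in both activators (-0.82 and -1.11).

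Relatives of the members moved in both directions. PLK1, the mitotic Polo-like kinase gene, was not called with Nutlin-3 (0.14), Rita (-0.13) or B87+DMKG (0.11), where the PLK3 row rose. GADD45B fell with Nutlin-3 (-0.81, limma adjusted p = 2.7e-06) while GADD45A rose, and both rose with B87+DMKG (0.67 for GADD45B). BTG1, the closest relative of BTG2, rose with Nutlin-3 (0.73), Rita (1.19) and DMKG (1.26). Of the 14 relatives tested, 4 rose and 4 fell with Nutlin-3, 5 rose and 3 fell with Rita, and 2 rose and 6 fell with B87+DMKG.

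Members of stress lists are given because BTG2, GADD45A, PLK2 and PLK3 are known to respond to stress signals as well as to p53. Of 18 immediate early genes, 15 rose with DMKG, 15 with B87+DMKG, 15 with Rita and 7 with Nutlin-3, and EGR1 rose most with B87+DMKG (6.54). Of 16 genes of the integrated stress response, 14 fell and 1 rose with B87+DMKG (median -1.31), led by CHAC1 (-6.02), whereas 14 rose with Nutlin-3 (0.66) and 11 rose and 2 fell with Rita (0.62). PLK2 fell in B87+DMKG beside the integrated stress response genes, and GADD45A rose there beside the immediate early genes. These pairings held in some treatments and not in others. With Rita, PLK2 rose (0.39) beside integrated stress response genes and GADD45A (2.52) beside immediate early genes. With B87+DMKG+Rita, PLK2 (0.91) and GADD45A (3.1) rose, where 13 and 17 genes of these lists rose and 1 of each fell. With B87+DMKG+Nutlin-3, PLK2 fell (-0.65), where 7 integrated stress response genes rose and 4 fell. GADD45A rose there (2.67), where 15 immediate early genes rose. PLK2 was not called with Nutlin-3 (-0.03), where 14 integrated stress response genes rose. GADD45A was not called with DMKG (-0.28), where 15 immediate early genes rose. No link between these genes and the lists was tested.

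With B87+DMKG+Nutlin-3, 58% of all tested rows were called, and with B87+DMKG+Rita 60.1%. Of the 6 genes, 4 rose, PLK2 fell and SFN was not called with the first, and all 6 rose with the second. The other p53 lists were called in part with both. Of the 4 other growth control targets, 1 rose with B87+DMKG+Nutlin-3, and 1 rose and 1 fell with B87+DMKG+Rita. Of the 11 death targets, 5 rose and 2 fell with B87+DMKG+Nutlin-3 (median -0.04), and 5 rose and 1 fell with B87+DMKG+Rita (0.19). Of the 10 repair and metabolism targets, 6 rose and 1 fell with the first (0.38), and 8 rose with the second (0.52). Of the 8 partners of p21, 6 fell and 1 rose with B87+DMKG+Nutlin-3 (-0.86), whereas 3 fell and 4 rose with B87+DMKG+Rita (0.16). Mitosis genes fell in 6 of 20 cases with the first and in 12 of 20 with the second, and 7 and 4 rose. B87 alone changed no gene of these lists by limma, in a comparison with 7 called rows in all.

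**Figure D5:**
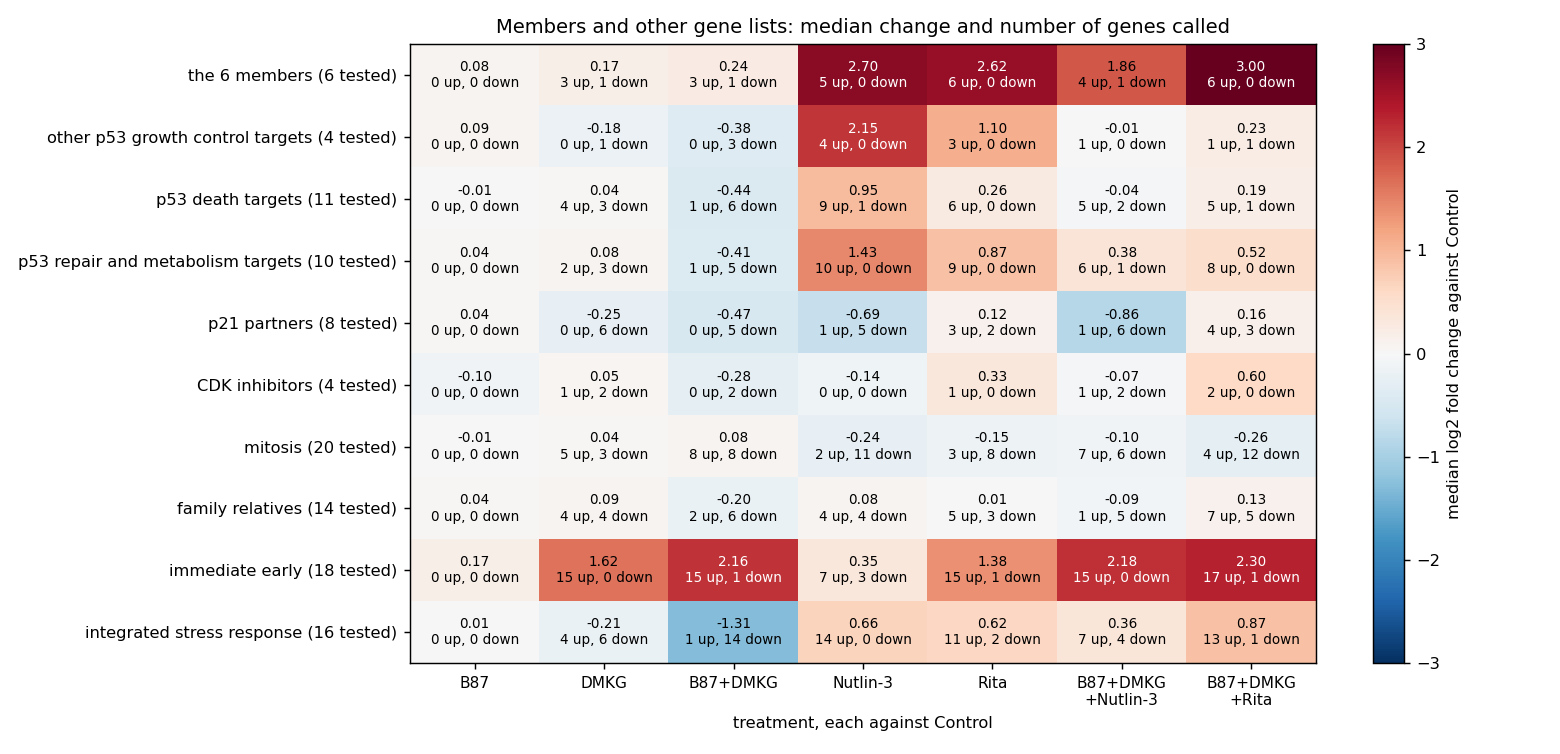
Median log2 fold change against Control of the 6 genes and of 9 other lists under 7 treatments (colour and upper number), with the number of genes called in each direction. The 6 genes have medians of 2.70 with Nutlin-3 and 3.00 with B87+DMKG+Rita, and the medians of the 3 lists of p53 targets lie below 0 with B87+DMKG.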

How the data were processed

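Poly(A) RNA was measured in 31 libraries of 8 groups, which were assigned from the titles and treatments in the labels. The authors deposited 1 table of normalized read counts, a signal per gene that is scaled between libraries (DESeq2, STAR 2.4.0, Picard, SAMtools and FastQC per the submitters' processing notes). Those notes name the build mm10 and the file header names hg19, and the human gene rows were read as hg19. A stranded kit was used per the labels' protocols, but whether counting used the strand is not given in the sources used here. Dividing by the step between values gave whole reads (100% of 690132 values within 0.1 of a step), of which 55.8% to 59.2% were even among those below 1000, so a fragment may count more than once.

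Values were tested as log2(value + 1) with limma 3.58.1 (R 4.3.3; empirical Bayes, 1 fit of all 8 groups, 23 residual degrees of freedom) on the 16259 rows with a mean of at least 10, and p-values were adjusted over all of these. The test was checked on simulated data. Contrasts were each treatment against Control, pairs of treatments, and differences between effects. Values of 6 genes, some of the list genes with large called changes, genes with a role beside a member, and the 3 rows most like each member are named. The members and lists were chosen with earlier results of these data known. Rows that combine genes were kept out of the lists, and 1 gene of these lists is not reported here. Alternatives were pseudocounts of 0.5 and 5, no filter and a mean of at least 50, quantile normalization, scaling to the same total, a fit restricted to each comparison's own groups, a block for replicate number, count models on the recovered reads (edgeR 4.0.16, DESeq2 1.42.0), and leaving out each library. Leaving out a pair of DMKG libraries was chosen after seeing the data.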

Additional observations from a re-analysis of the deposited data

Results flagged for a closer look

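GADD45A had 1 Rita library, number 4, far from the other libraries of its group, at 13626 beside 10160.4, 10166 and 10194. Of 42 groups of values checked for such a library with Dixon's test this was the only one, and chance gives about 1 in 20.

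Effects under the same contrast differed in 14 of 18 tests of a difference (limma adjusted p under 0.05), where 48.8%, 56.9% and 48.6% of all rows were called in the 3 contrasts taken in the order below. Against the sum of the B87 and DMKG effects, the combination lay at -0.48 for CDKN1A, -0.77 for BTG2, 1.00 for GADD45A, -0.97 for PLK2 and -0.47 for the PLK3 row, on the log2 scale. The CDKN1A and PLK3 row calls were lost without DMKG libraries 3 and 4 (-0.23 and -0.26). The Nutlin-3 effect differed with B87+DMKG by -1.17 for CDKN1A, -2.19 for BTG2, -1.41 for GADD45A, 0.70 for PLK2, -1.17 for the PLK3 row and -1.10 for SFN. The Rita effect differed by 1.85 for PLK2, -0.39 for the PLK3 row and -0.56 for SFN.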

How the results depend on the processing

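The 102 results of the 6 genes, 83 of them called, were recomputed under 43 other settings. Over the alternatives 1016 of 1056 values kept their direction and side of the threshold, 19 lost the call, 16 gained it and 5 changed sign. Over left-out libraries the counts were 892 of 936, 26, 8 and 10. Sign changes under an alternative were BTG2 in B87+DMKG against Control (0.04, quantile normalization), PLK2 in DMKG against Control (0.01, DMKG libraries 3 and 4 left out), SFN in B87+DMKG+Rita against B87+DMKG (-0.1, quantile normalization; -0.17, same total) and SFN in B87+DMKG+Rita against Control (-0.03, same total). The number of genes called moved from 5 to 3 for B87+DMKG beyond the summed single effects with DMKG libraries 3 and 4 left out, and from 3 to 5 for the difference in Rita effect under quantile normalization. With 1 library left out at a time, results that changed sign ran from -0.05 to 0.14 (GADD45A, B87), -0.04 to 0.01 (PLK2, B87), -0.01 to 0.14 (PLK3 row, B87), -0.19 to 0.0 (BTG2, B87+DMKG), -0.07 to 0.01 (PLK2, Nutlin-3) and -0.09 to 0.02 (SFN, B87+DMKG+Nutlin-3) against Control, and from -0.04 to 0.14 for SFN in B87+DMKG+Rita against B87+DMKG; none of these was called with all libraries in. The causes were not tested. Scaling to the same total moved the median of all rows most in B87+DMKG+Rita against Control, to -0.248.

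Replicate numbers did not pair the libraries: over 105 same-numbered pairs the correlation of deviations ran from -0.207 to 0.187 (median -0.003), and in 0 of 28 pairs of groups did every pair exceed 0.1. With the replicate block the number of genes called stayed at 5 for Nutlin-3, 6 for Rita, 4 for B87+DMKG and 0 for B87 against Control, and at the same number in the other comparisons.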

Other observations

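APTR, named for an Alu-mediated transcriptional regulator of CDKN1A, was looked up after the values of the 6 genes had been seen. Its mean normalized read count was 129.9 ± 23.9 (SD, n = 4) in Control and 78.3 ± 7.56 in DMKG, a fall of -0.71 on the log2 scale (limma adjusted p = 0.00011), where CDKN1A rose. APTR rose with Nutlin-3 (187.3 ± 15.0, log2 fold change 0.54, adjusted p = 0.0043), with Rita (239.9 ± 12.97, 0.90, adjusted p = 2.5e-06), with B87+DMKG+Nutlin-3 (186.2 ± 15.5, 0.53, adjusted p = 0.0015) and with B87+DMKG+Rita (309.5 ± 36.7, 1.26, adjusted p = 3.9e-09). It was not called with B87 (-0.04) or B87+DMKG (-0.16). PANDAR, a long noncoding RNA known from the CDKN1A promoter, reached at most 2.60 in any library.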
